A study of Mus musculus with 43 samples.

Results

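The mitochondrial ATP synthase subunits of the in vivo metabolic CRISPR screen were the library genes whose symbol starts with *Atp5*. The rule took 15 of the 2078 targeted genes, with 5 sgRNAs each, so 75 of the 10640 sgRNAs, and no measured value entered it. Antigen-specific CD8+ T cells from OT-I Cas9 knock-in mice, whose T cell receptor recognizes ovalbumin, carried the lentiviral sgRNA library together with CD90.1 as a surface marker. They were transferred into mice with orthotopic tumours of KPC_OVA, a pancreatic cancer line that expresses ovalbumin, and anti-PD-1 or control IgG was started on the day of transfer. The sgRNAs integrated in genomic DNA were sequenced in 3 libraries of cells from the day of transfer (T0) and in libraries of CD90.1+ cells sorted 7 days later. Under each treatment there were 3 libraries from primary tumour, lung, spleen, draining lymph nodes and nondraining lymph nodes. The peritoneal metastases had 2 libraries under IgG and 3 under anti-PD-1, and the liver had 2 under IgG and 1 under anti-PD-1. Of 43 samples, 41 had values here. All cells, T0 included, carried Cas9 and the whole library, so every change below is a change in the abundance of cells with a given sgRNA within a pool of cells with other sgRNAs. The labels do not say whether libraries of a group came from separate mice, so p-values measure the spread between these libraries.

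The ATP synthase of the inner mitochondrial membrane, or complex V, makes ATP with the proton gradient that the respiratory chain builds. Protons passing through the membrane sector turn a ring of c subunits and a central stalk, and the rotation drives ATP synthesis in the catalytic head, which a peripheral stalk holds still. Activated T cells combine glycolysis with oxidative phosphorylation as they expand. By role, the targeted genes encode the alpha and beta subunits of the catalytic head (*Atp5a1*, *Atp5b*), the gamma, delta and epsilon subunits of the central stalk (*Atp5c1*, *Atp5d*, *Atp5e*), the b, d, F6 and OSCP subunits of the peripheral stalk (*Atp5f1*, *Atp5h*, *Atp5j*, *Atp5o*), the c subunit of the ring (*Atp5g1*, *Atp5g2*, *Atp5g3*) and the small membrane subunits e, f and g (*Atp5k*, *Atp5j2*, *Atp5l*). The library symbols are older ones, 14 of which were symbols in the RefSeq gene table and 1 of which, *Atp5f1*, matched as a synonym.

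The 3 genes of the c subunit are shown by sequence because they encode the same subunit and were the only members without a call in the screen. The stretch below holds the last 60 bases before the stop codon in the longest reading frame of a GENCODE transcript of each gene, written 5′ to 3′ on the coding strand, with capitals at the 18 positions where the 3 genes are not all alike.
Atp5g1: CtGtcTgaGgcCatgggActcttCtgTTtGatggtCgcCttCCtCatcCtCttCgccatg
Atp5g2: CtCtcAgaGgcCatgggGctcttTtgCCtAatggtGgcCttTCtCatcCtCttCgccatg
Atp5g3: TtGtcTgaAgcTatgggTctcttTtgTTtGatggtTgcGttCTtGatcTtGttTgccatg
Over the last 75 codons, all 75 codons encoded the same residue in every pair of the genes. The DNA differed at 57 of the 225 positions, and it was 84.9% identical between *Atp5g1* and *Atp5g2*, 80.0% between *Atp5g1* and *Atp5g3* and 78.7% between *Atp5g2* and *Atp5g3*. The longest identical run was 20 bases between *Atp5g1* and *Atp5g2*, 11 between *Atp5g1* and *Atp5g3* and 8 between *Atp5g2* and *Atp5g3*. The sequences of the sgRNAs were not used here, and sgRNAs are named by the identifiers of the library.

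The signal of an sgRNA in a library was the read count that the authors had normalized to nontargeting sgRNAs and corrected with ComBat for batch effects between organs. The level of a gene below is the mean of log2(signal + 1) over its 5 sgRNAs minus the mean over the 250 nontargeting sgRNAs of the same library, so 0 stands for the nontargeting mean. Read depth behind the signal is unknown. In the sorted libraries many sgRNAs sat at the lowest value the table gives them (at most 0.0188% did in a T0 library), and a change that ends there is a lower bound on the decrease. This share was 2.78 to 24.1% of all sgRNAs in the 20 libraries from primary tumour, liver, peritoneal metastases and spleen, and 10.5 to 42.6% in the 6 lung libraries. In the 12 lymph node libraries it was 45.4 to 91.6%, so the 26 libraries of the other organs were analysed apart from them.

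Of the 15 ATP synthase genes, 12 were depleted against T0 in the mean of the 10 groups outside the lymph nodes and none was enriched. Among all 2078 genes the same test called 16.1% lower and 0.192% higher (limma, adjusted p at most 0.05). The members' median change was -2.69 on the log2 scale and that of all genes -0.14. Both catalytic subunits and every subunit of the central stalk, the peripheral stalk and the accessory membrane group were among the depleted genes, and the 3 genes of the c subunit were not. For 11 of the 12 depleted genes, each of the 26 sorted libraries lay below each T0 library, a separation that 14% of all genes showed. *Atp5j* was the exception, with 24 of 26 libraries below T0. When the median of the 5 sgRNAs stood for a gene instead of their mean, 6 genes were depleted, with 11% of all genes: *Atp5a1*, *Atp5b*, *Atp5c1*, *Atp5d*, *Atp5l* and *Atp5o*. Without the lung libraries the same 12 genes were called.

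The catalytic head showed the deepest depletion among the members. *Atp5a1*, the alpha subunit, had levels of -0.49, -0.15 and 0.33 in the T0 libraries and of -6.83 to -3.35 (median -5.31) in the 26 sorted libraries. Its change was -5.12 (SE 0.478, adjusted p = 1.16e-10, limma), which is 34.8-fold on the log2(signal + 1) scale and the 49th lowest of 2078 genes. *Atp5b*, the beta subunit with the catalytic sites, had T0 levels of -0.83, -0.53 and -0.00036 and sorted levels of -6.77 to -3.60 (median -5.50). The *Atp5b* change was -5.06 (SE 0.547, adjusted p = 2.42e-09), or 33.3-fold. Neither gene had a sorted library that overlapped T0, and both passed the test in all 10 groups. All 10 of their sgRNAs were depleted singly, with changes of -5.98 to -4.39. Of their sgRNA values in the sorted libraries, 61.5% were at the lowest value for each gene, against 7.09% for the nontargeting sgRNAs and 11.4% for all sgRNAs. The signal of the *Atp5b* sgRNA s_00372 was 219, 225 and 247 at T0, 13.5, 0.245 and 0.354 in primary tumour under IgG, and 1.44, 0.245 and 0 under anti-PD-1. The *Atp5a1* sgRNA s_00369 went from 148, 194 and 269 at T0 to 14.4, 0.194 and 12.5 in primary tumour under IgG. All of these tumour values were far below the T0 values of the same sgRNA.

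In the central stalk, the gamma and delta subunits fell further than epsilon, in values that were not tested against each other. *Atp5c1*, the gamma subunit that turns inside the head, had T0 levels of -0.25 to 0.60 and sorted levels of -5.95 to -2.30 (median -4.07), a change of -4.27 (SE 0.550, adjusted p = 7.91e-08). *Atp5d*, the delta subunit at the foot of the stalk, had T0 levels of -0.71 to 0.29 and sorted levels of -6.32 to -1.86 (median -4.24), a change of -3.99 (SE 0.485, adjusted p = 2.67e-08). Both passed the test in all 10 groups, each with 3 of 5 sgRNAs depleted singly. *Atp5e*, the epsilon subunit, had T0 levels of -0.019 to 0.092 and sorted levels of -4.50 to -0.79 (median -2.05), a change of -2.23 (SE 0.478, adjusted p = 0.00036). It passed in 6 of 10 groups. Its 5 sgRNAs were far apart, since s_05391 changed by -5.16 and the other 4 by -3.22, -1.21, -0.96 and -0.62.

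The peripheral stalk genes were depleted by similar amounts, from -2.89 to -2.15. *Atp5f1*, subunit b, changed by -2.89 (SE 0.538, adjusted p = 5.28e-05), with T0 levels of 0.60 to 1.12 and sorted levels of -5.03 to -0.25. *Atp5o*, the OSCP subunit that ties the stalk to the head, changed by -2.69 (SE 0.466, adjusted p = 1.77e-05), with T0 levels of 0.95 to 1.22 and sorted levels of -3.53 to -0.23. Both started high at T0 and their sorted libraries all lay below it. *Atp5h*, subunit d, changed by -2.46 (SE 0.459, adjusted p = 5.42e-05) and *Atp5j*, coupling factor F6, by -2.15 (SE 0.579, adjusted p = 0.00495). *Atp5j* was the weakest call of the 12. It was lost when T0 replicate 3 was left out (change -2.01, adjusted p = 0.0524). The 4 genes passed the test in 7 (*Atp5f1*), 8 (*Atp5o*), 9 (*Atp5h*) and 5 (*Atp5j*) of the 10 groups. Only 4 of their 20 sgRNAs were depleted singly. Of the 20, 19 had changes below 0, a count without a share over all sgRNAs.

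The accessory membrane subunits were depleted by -3.17 to -2.16. *Atp5l*, subunit g, changed by -3.17 (SE 0.557, adjusted p = 2.17e-05), from T0 levels of 0.12 to 0.30 to sorted levels of -5.11 to -1.14 (median -2.88). *Atp5k*, subunit e, changed by -2.82 (SE 0.453, adjusted p = 4.92e-06), from -0.10 to 0.53 at T0 to -4.51 to -1.25 (median -2.68). *Atp5k* was the only gene outside the head and the central stalk that passed the test in all 10 groups. *Atp5j2*, subunit f, changed by -2.16 (SE 0.546, adjusted p = 0.00257), from 0.30 to 0.52 at T0 to -4.80 to -0.35 (median -1.69). Subunits e and g are known for their part in joining ATP synthases into dimers at the edges of cristae.

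None of the 3 c subunit genes passed the test in the mean of the 10 groups or in any of those groups. *Atp5g1* had T0 levels of 0.44, 0.54 and 0.78 and sorted levels of -2.21 to 1.98 (median -0.0012). Its change was -0.61 (95% interval -1.64 to 0.42, adjusted p = 0.871). *Atp5g2* had T0 levels of 0.24, 0.28 and 0.40 and sorted levels of -0.84 to 1.84 (median 0.31). Its change was 0.0025 (95% interval -0.79 to 0.79, adjusted p = 0.99995). *Atp5g3* had T0 levels of -0.12, 0.042 and 0.17 and sorted levels of -2.39 to 1.62 (median -0.056), and its change was -0.034 (95% interval -1.03 to 0.96, adjusted p = 0.99995). The sorted libraries of all 3 genes overlapped the T0 libraries, with 17, 12 and 11 of 26 below the T0 range in the order given. The intervals of all 3 lie above the fitted change of each of the 12 depleted subunits, the least of which was -2.15, but differences between genes were not tested, and the interval of *Atp5g1* overlaps those of *Atp5e* (-3.21 to -1.26), *Atp5j* (-3.33 to -0.98) and *Atp5j2* (-3.27 to -1.05). None of the 15 sgRNAs to the c subunit was called, and their changes ran from -1.37 to 0.75, with 8 of 15 below 0. At 2.31 to 5.38%, the share of their values at the lowest value was under the 7.09% of the nontargeting sgRNAs. The *Atp5g2* sgRNA s_05634 gave signals of 333, 349 and 225 at T0 and of 172, 235 and 510 in primary tumour under IgG. The values as deposited, without centring, called *Atp5g1* at -1.61 (adjusted p = 0.0368), a setting that moves the median of all genes by -0.998.

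At the level of single sgRNAs, 23 of the 75 were depleted in the mean of the 10 groups and none was enriched. The same test called 7.7% of the 10390 sgRNAs to genes lower, 0.077% higher and none of the 250 nontargeting sgRNAs. Of the 75, 67 had changes below 0, and the share of all sgRNAs below 0 is not given. The median change of the 75 was -2.72, and that of the nontargeting sgRNAs 0.077. Calls were concentrated in the head (10 of 10 sgRNAs) and the central stalk (7 of 15), with 4 of 20 in the peripheral stalk, 2 of 15 in the accessory membrane subunits and 0 of 15 in the c subunit. The spread between sgRNAs of a gene was small for *Atp5j2* (SD 0.332 over 5 sgRNAs, -2.58 to -1.85), with 15.4% of its values at the lowest value. It was also small for *Atp5b* (SD 0.310, -5.44 to -4.72), where 61.5% of values were at the lowest value, which limits how far sgRNAs can differ. It was largest for *Atp5h* (SD 2.20), *Atp5k* (SD 2.05) and *Atp5e* (SD 1.92). For *Atp5h*, s_06153 changed by -5.13 with 26 of 26 sorted libraries below T0, and s_06154 changed by 0.28 with 8 of 26. Its signals show the gap, since s_06153 read 182, 251 and 192 at T0 and 1.32, 0.305 and 8.56 in primary tumour under IgG, whereas s_06154 read 457, 316 and 260 and then 540, 429 and 170. The sgRNA count leaned on T0, for it was 14, 10 and 9 when T0 replicate 1, 2 or 3 was left out.

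The depletion was seen in every organ outside the lymph nodes. In primary tumour 11 of 15 genes were lower under IgG and 10 under anti-PD-1, where 14.3% and 14.4% of all genes were. In lung the counts were 11 and 12 (16.2% and 17.2% of all genes), and in spleen 12 and 10 (13.6% and 14%). In peritoneal metastases they were 9 and 11 (13.7% and 15.3%), and in liver 8 and 6 (13.1% and 9.58%). None of the 15 genes was higher in any of these groups. Of all genes, 0% and 0.144% were higher in primary tumour under IgG and anti-PD-1, 1.68% and 0.962% in lung, 0.192% and 0.289% in liver, 0.0481% and 0.144% in peritoneal metastases, and 0.289% and 0.433% in spleen. Median changes of the 15 genes ran from -3.22 in lung under anti-PD-1 to -2.12 in peritoneal metastases under IgG, with all genes between -0.26 and 0.0039. All 10 groups share the 3 T0 libraries, so their counts are not independent. Leaving out 1 library took the count in peritoneal metastases under IgG from 9 to 5 (without replicate 2) or 4 (without replicate 3), and in liver under IgG from 8 to 5 (without replicate 3). No share over all genes is given for these counts with 1 library left out. The single liver library under anti-PD-1 was tested with the spread of the other groups. One anti-PD-1 library of peritoneal metastases (replicate 2) carries spleen in its tissue label, and without it 12 genes stayed called in the mean of the 10 groups. In peritoneal metastases under anti-PD-1, leaving this library out took the depleted sgRNAs of the members from 14 to 6.

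In the lymph nodes, 1 of the 15 genes was lower in draining nodes under IgG, where 2.65% of all genes were. That gene was *Atp5c1*, at -2.79 (adjusted p = 0.0383), and it was not called when any T0 library or draining node IgG replicate 1 or 3 was left out. None was called in draining nodes under anti-PD-1 (1.25% of all genes) or in nondraining nodes under either treatment (0% of all genes). Without replicate 1 of draining nodes under anti-PD-1, 1 gene passed there, and the share of all genes in that setting is not given. None of the 15 genes was higher in any lymph node group, where 0.914% and 0.866% of all genes were in draining nodes and 0.0481% and 0.241% in nondraining nodes. At an unadjusted p under 0.05, 6 and 4 of the 15 genes were lower or higher in draining nodes under IgG and anti-PD-1, and 3 under each treatment in nondraining nodes. Among all 2078 genes 377, 396, 309 and 286 were, in the same order of groups. Median changes there were -1.13, -0.69, -0.84 and -0.49. The lowest value lay at a level of -3.83 to -0.45 in these libraries, and 57.3 to 97.3% of the members' sgRNAs were at it. *Atp5a1* changed by -2.53 to -1.11 and *Atp5b* by -2.33 to -1.36 over the 4 lymph node groups. Of 20 ribosomal protein genes, a reference for depletion, 11 were lower in draining nodes under IgG, 5 under anti-PD-1 and 0 in nondraining nodes under either treatment.

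No ATP synthase gene differed between the 5 other organs (moderated F-test of limma, 0 of 15, with 0.433% of all genes called). The paper describes the ComBat correction as one for batch effects between organs, and how its batches were set is not given in the sources used here. For s_00368, the smallest signal was 0.290 in replicate 1 libraries of primary tumour, lung and draining nodes. It was 0.534 in replicate 2 libraries of the same organs and 0 in replicate 3. For this sgRNA the floor thus went with the replicate number and not with the organ. What part the correction had in the organ result was not tested. At an unadjusted p under 0.05 the test named *Atp5a1*, *Atp5l* and *Atp5g1*. The changes of *Atp5a1* were -5.94 in peritoneal metastases, -5.57 in primary tumour, -5.16 in lung, -5.03 in spleen and -3.91 in liver, with an adjusted p of 0.509. *Atp5l* ran from -3.97 in spleen to -2.45 in peritoneal metastases (adjusted p = 0.628). The flattest profile was that of *Atp5o*, at -2.92 in primary tumour, -2.69 in lung, -2.62 in liver, -2.52 in peritoneal metastases and -2.68 in spleen. None of the 10 organ pairs gave a call for any of the 15 genes. Of all genes, 0.241% were lower and 0.0481% higher in primary tumour than in spleen, 0.0962% lower in lung than in liver, 0.0962% lower in lung than in spleen, 0.0481% higher in liver than in peritoneal metastases, 0.144% higher in liver than in spleen and 0.144% lower in peritoneal metastases than in spleen, and no gene was called otherwise.

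Anti-PD-1 was compared with IgG to see whether checkpoint blockade moved the abundance of these knockouts. Over the 5 organs, 0 of 15 genes passed the test in either direction, with 0.481% of all genes called lower and 0.866% higher (limma). At an unadjusted p under 0.05 there were 4 of 15 genes, against 329 of 2078 in all. *Atp5d* was closest to the threshold, lower under anti-PD-1 by a change of -1.10 (95% interval -1.77 to -0.43, adjusted p = 0.0955), and with the same sign in 5 of 5 organs. Its differences were -1.84 in primary tumour, -1.36 in lung, -1.08 in liver, -0.48 in peritoneal metastases and -0.74 in spleen. The mean is taken over these same organs, so the shared sign is not separate evidence, and its share over all genes is not given. Without lung IgG replicate 3 *Atp5d* passed the test (-1.20, adjusted p = 0.0424). *Atp5g2* was higher under anti-PD-1 by 0.80 (95% interval 0.27 to 1.34, adjusted p = 0.123), most in spleen at 1.68. The other two at that level were *Atp5c1* at 0.79 (adjusted p = 0.292) and *Atp5l* at -0.78 (adjusted p = 0.308). Libraries of the same replicate number and treatment deviated together in 41 of 41 pairs, so the comparison was repeated with them as a random block, an alternative chosen after seeing the data. It then called 0.192% of all genes and 0 of 15 members, with 2 at an unadjusted p under 0.05, and gave *Atp5d* an adjusted p of 0.317 and *Atp5g2* one of 0.348. Within single organs none of the 15 genes passed. All genes gave 2.36% lower and 1.2% higher calls in lung and no call in primary tumour, liver, peritoneal metastases and spleen. The organ by treatment interaction called none of the 15 genes and none of all 2078.

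At T0, which was taken some days after transduction, most of the 15 genes stood near the nontargeting mean. The lowest were *Atp5b* at -0.45 (29th lowest of 2078 genes), *Atp5d* at -0.36 (81st) and *Atp5j* at -0.27 (131st). The highest were *Atp5o* at 1.08 (2071st) and *Atp5f1* at 0.88 (2034th). The median T0 level of the 75 sgRNAs was 0.12, with 0.011 for the nontargeting sgRNAs. These T0 levels hold the representation of each sgRNA in the library as well as any change before transfer, and the 2 cannot be told apart.

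Other genes of oxidative phosphorylation were described by lists of symbols. Of the genes listed for complex I, the NADH dehydrogenase at the entry of the respiratory chain, 30 of 38 were depleted in the mean of the 10 groups (median change -2.58). They were led by *Ndufa1* at -5.23. Complex II, succinate dehydrogenase, had 4 of 4 genes depleted (median -3.82), with *Sdha* at -4.76. Complex III with cytochrome c had 8 of 11 (median -3.05), with *Uqcrc1* at -4.62. Complex IV, cytochrome c oxidase, had 4 of 18 (median -0.44), with *Cox7b* at -3.96 and *Cox6c* at -3.62. Thus complexes I to III lay near the 12 of 15 genes and median of -2.69 of the ATP synthase, and most complex IV genes were not called. These shares stand beside 16.1% of all genes. The lists were set by gene symbol and not by the make-up of each complex or by expression in T cells. They can thus hold genes that are not subunits of the named complex or that these cells do not use.

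The substrates of the ATP synthase enter the matrix through carriers of the inner membrane. *Slc25a3*, the phosphate carrier, was depleted at -3.27 (SE 0.574, adjusted p = 2.12e-05). Of the ADP/ATP carriers, *Slc25a5* had -0.78 (adjusted p = 0.662) and *Slc25a4* had -0.25 (adjusted p = 0.99995). The vacuolar ATPase, a rotary enzyme that uses ATP to pump protons into organelles, had 14 of 23 genes depleted (median -2.72). Its ring subunit *Atp6v0c* had the lowest value of that list at -6.02, whereas the ring genes of the ATP synthase stayed between -0.61 and 0.0025. As a reference for depletion, 19 of 20 ribosomal protein genes were depleted, with a median of -5.35, close to the values of *Atp5a1* and *Atp5b*. For *Atp5a1* and *Atp5b* 61.5% of sgRNA values in the sorted libraries were at the lowest value, which limits how far such changes can differ. Lists of ATP synthase assembly and inhibitor genes and of genes of mitochondrial DNA matched no gene of the library.

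The mean change of the 12 depleted subunits over the 10 groups was set beside the changes of the 2063 other genes. Among the highest Pearson correlations were those of *Pfkfb3* (0.944), *Pgm3* (0.924), *Mtmr6* (0.891) and *Alad* (0.885), over 10 groups that share T0 and libraries. The median over all other genes was 0.034, and 2 of the 2063 were above 0.9. *Pgm3*, an enzyme of amino sugar synthesis, was depleted at -3.93 and *Alad*, an enzyme of haem synthesis, at -2.90. *Pfkfb3* had -1.05 (adjusted p = 0.198, limma) and *Mtmr6* had -0.45 (adjusted p = 0.946), and neither was called. The points are few and all share T0, so these values are a description only.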

How the data were processed

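Integrated sgRNAs were amplified and sequenced from the DNA of transferred and sorted T cells. The authors counted reads with MAGeCK, normalized the counts to nontargeting sgRNAs, corrected batch effects between organs with ComBat and deposited the resulting signal per sgRNA and library. The signal is not whole, so no count test, counting interval or detection limit is given. Sorted cells with an sgRNA at the lowest value may still hold it, and ComBat can move low values. The genome build of the library design is not given in the sources used here, and no coordinates are printed.

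Each value was converted to log2(value + 1), the 5 sgRNAs of a gene were averaged, and the result was centred on the mean of 250 nontargeting sgRNAs. limma 3.58.1 in R 4.3.3 fitted 1 mean per group to 29 libraries outside the lymph nodes (prior degrees of freedom 15.5) and to all 41 for the lymph nodes. Benjamini-Hochberg adjustment ran over 2078 genes or all 10640 sgRNAs, nontargeting ones included, at 0.05. Intervals were computed with scipy 1.17.1 in Python 3.11.15 at 33.5 degrees of freedom. The script was tested on simulated data. The members and lists were chosen with earlier results of these data known. All members are named. Of the other lists, the carriers and at most the 2 genes with the largest decrease are named, and the 5 genes of highest correlation, 1 of which is not reported here. Alternatives changed the pseudocount, the centring, the gene summary, a filter of the lowest 10% of sgRNAs, the block, the libraries fitted and the eBayes setting.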

Additional observations from a re-analysis of the deposited data

Results flagged for a closer look

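For *Atp5g1* and *Atp5g2*, some pairs of groups lay on opposite sides of the T0 libraries, with each library of one group above and each of the other below. Under anti-PD-1, the lung exceeded the primary tumour by 1.38 and the spleen by 2.24 on the log2 scale for *Atp5g1*, and it exceeded the nondraining lymph nodes by 2.22 for *Atp5g2*. For *Atp5g2* under anti-PD-1, the spleen exceeded the nondraining lymph nodes by 2.18. Under IgG, the *Atp5g2* change in nondraining lymph nodes exceeded that in liver by 2.04 and that in spleen by 2.40, and it exceeded nondraining lymph nodes under anti-PD-1 by 2.90. These differences were not tested within a treatment, and the changes in lymph nodes and in the other organs come from separate fits. In the lymph node libraries 45.4 to 91.6% of all sgRNAs sat at the lowest value. In nondraining replicate 1 under IgG, the *Atp5g2* sgRNA s_05634 read 948 and the others 0.901 to 1.82. Under anti-PD-1 all *Atp5g2* sgRNAs of that replicate read 0.901 to 1.82, which gave a level of -0.27. The share of all genes with such splits was not computed. In spleen, *Atp5g2* was higher under anti-PD-1 than under IgG by 1.68 (95% interval 0.63 to 2.73), with levels of 0.72, 1.84 and 0.67 against -0.31, -0.65 and -0.84, and the limma test of this difference gave an adjusted p of 0.298. With a T0 range as narrow as 0.24 to 0.40 for *Atp5g2*, such a split needs little difference.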

How the results depend on the processing

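In the mean of the 10 groups, the depletion of *Atp5a1*, *Atp5c1*, *Atp5l* and *Atp5o* passed the test in all 40 alternatives, and that of *Atp5b* in the 39 that kept any of its sgRNAs. The count of 12 genes was 11 to 12 when single libraries were left out and 0 were higher in each. It was 6 with the median of the sgRNAs and 6 without the lowest 10% of sgRNAs, a filter that by construction removes depleted sgRNAs (25 of 75 here, with all 5 of *Atp5b*). Of all genes, 11% and 3.92% were lower under these settings, against 16.1%. Under the median the groups gave 3, 3, 5, 2, 3, 4, 3 and 4 genes in primary tumour, liver, peritoneal metastases and spleen (IgG first). Of all genes, 5.49, 7.36, 7.07, 3.95, 6.69, 8.61, 6.5 and 7.07% were lower in the same order. Draining nodes under IgG gave 0 genes (0.0481% of all genes) and complex I gave 15. Without the lowest 10%, groups outside the lymph nodes gave 0 to 6 genes (0, 1, 2 or 6), with 0.0496 to 5.61% of all genes. The sgRNA counts under this filter were 0 or 3, and *Atp5h* and *Atp5j* made 2 anti-PD-1 calls in lung. The lists then gave 0 carriers, 3 genes of complex I, 2 each of complexes II, III and IV, 1 of the vacuolar ATPase and 4 ribosomal genes. Here *Atp5d* in lung under IgG turned to 0.79 (adjusted p = 0.845). Centring on all sgRNAs moves the median of all genes by 0.65. It gave 7 genes in primary tumour and 4 in peritoneal metastases under IgG (11.6% and 10.4% of all genes). The sgRNA counts with it were 15 in the mean and 3, 10, 1, 5, 8, 3 and 6 in groups. The values as deposited, which move that median by -0.998, called 32.3% of all genes lower in the mean. They gave 10 genes in liver under anti-PD-1 (16.5% of all genes), 15 in each lymph node group (99.1 to 99.9% of all genes), 5 between organs (14.4% of all genes), 2 carriers, 11 of complex IV and sgRNA counts of 10, 15, 16, 17, 18, 34 and 44 in organs and 54, 55, 58 and 62 in lymph nodes. Fits of 1 group with T0 gave 13 genes in liver under anti-PD-1 and 4 in draining nodes under IgG, with sgRNA counts of 4, 16, 21, 30, 39, 40 and 46. In these single-group fits the calls over all genes rose too, to 5.15% from 2.65% in draining nodes under IgG. They also rose in liver under anti-PD-1, where the fit rests on 1 library, so the rise there was not confined to the members. Whether the rise was larger for the members than for other genes was not tested. The fit of all 41 libraries gave 4 genes in peritoneal metastases under IgG (11.8% of all genes). Its sgRNA counts were 10, 0 and 8 in lung IgG, liver anti-PD-1 and peritoneal metastases anti-PD-1. With log2(value + 10), draining nodes under IgG gave 0 genes (0.0481% of all genes). The sgRNA counts were then 21 and 23 in primary tumour, 0 in liver anti-PD-1 and 17 in spleen. The nontargeting median moves the median of all genes by -0.41. It gave 0 genes in draining nodes under IgG (0% of all genes) and 29 sgRNAs in lung under IgG. Shares over all sgRNAs are not given for these settings, so the sgRNA counts stand without a background. The cause of these shifts was not tested beyond what each setting removes or adds.

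The c subunit genes changed sign. *Atp5g1* was 0.041 with all sgRNAs for centring. *Atp5g2* was -0.13 with log2(value + 10), -0.41 with the nontargeting median, -0.996 as deposited, -0.020 without the lowest 10% and -0.070 without the lung libraries (added after seeing the data). *Atp5g3* was 0.62 with all sgRNAs for centring and 0.17 with the median. Leaving out single libraries gave -0.037 to 0.051 for *Atp5g2* and -0.11 to 0.043 for *Atp5g3*.

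Leaving out single libraries gave 9 to 10 genes in primary tumour IgG and 9 to 11 in anti-PD-1, 10 to 11 and 11 to 12 in lung, 5 to 9 and 5 in liver, 4 to 6 and 9 to 10 in peritoneal metastases, 9 to 11 and 8 to 10 in spleen, 0 to 1 in draining nodes under each treatment, and 0 to 1 in the anti-PD-1 comparison over organs. The sgRNA counts were 9 to 25 in the mean, 2 to 7 and 3 to 7 in primary tumour, 3 to 17 and 11 to 24 in lung, 0 to 2 and 0 to 1 in liver, 3 to 7 and 4 to 14 in peritoneal metastases, and 1 to 12 and 4 to 12 in spleen. For complex I it was 23 to 30 genes. Shares over all genes and all sgRNAs are not given for any setting with a single library left out, so these counts stand without a background.

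Replicate numbers are shared by the groups. Deviations from the group means of same-numbered libraries of the same treatment correlated at 0.0376 to 0.269 (median 0.168, 41 pairs), and those of the other treatment at a median of -0.065. Whether the numbers pair IgG with anti-PD-1 libraries cannot be told from this, because ComBat may have removed what libraries of 1 number share. Libraries of 1 number and treatment were not independent. Lowest values were also shared by number (for s_00366, 1.03 in replicates 1 and 0.491 in replicates 2). With the replicate number as a block, 12 genes and 22 sgRNAs were depleted in the mean, and no count moved by over 1.5 times. A block within treatment, added after seeing the data, gave 0 of 15 genes between organs and 12 of all genes. The same libraries as a random block (consensus correlation 0.115, also added) gave 12 genes in the mean, 0 between organs and 0 for anti-PD-1, where the calls over all genes went from 28 to 4.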
